A study of Mus musculus with 6 samples.

Results

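Lymphocyte marker genes were followed in isolated pancreatic islets, the clusters of hormone-secreting cells of the pancreas, from male mice at postnatal day 30. The set holds 9 genes, and every probe set that the array's annotation gives to 1 of these genes alone was taken. This found 11 probe sets for 8 genes, out of 45037 non-control probe sets and 18193 named genes. They are Cd3e, Cd3g, Cd79a, Cd79b, Cd52, Ptprc, Coro1a and Ltb. The ninth, Lck, a tyrosine kinase that starts signalling from the T-cell receptor, was not analysed here because the annotation used gives it no probe set. Ptprc has 2 probe sets and Coro1a 3, and a gene is represented by its brightest one unless stated otherwise.

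All mice were wild-type animals of the outbred OF-1 stock. The mothers had received vehicle (the vehicle group) or bisphenol-A, a plastics monomer with weak estrogen-like activity, at 10 µg/kg/day (BPA10) or 100 µg/kg/day (BPA100), from gestation day 9 to 16. Each group has 2 Affymetrix arrays, 6 in all. In the vehicle group, replicate 1 pooled the islets of 5 mice and replicate 2 came from 1 mouse. In the BPA10 group, replicate 1 came from 1 mouse and replicate 2 pooled 2 mice, while both BPA100 replicates came from single animals. Pooling therefore differs between groups, and litters are not given, so the p-values reflect array-to-array spread alone, which may be partly technical.

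T cells and B cells recognise antigen through receptors that cannot signal alone. The T-cell receptor hands its signal to the CD3 chains, to which Cd3e and Cd3g belong, and the B-cell receptor to the Igα and Igβ chains encoded by Cd79a and Cd79b. These 4 genes are specific to their lineages. Ptprc encodes CD45, a tyrosine phosphatase on the surface of nearly all white blood cells that sets the activity of Lck and related kinases. Cd52 encodes a small lipid-anchored surface glycoprotein of lymphocytes and monocytes, and Coro1a encodes coronin 1A, an actin-binding protein of leukocytes, so these 3 genes also occur in macrophages. Ltb encodes lymphotoxin β, a membrane-bound cytokine of lymphocytes that organises lymphoid tissue. A healthy islet holds few lymphocytes, and they are best known there for the attack on beta cells in autoimmune diabetes.

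The start regions of 4 members are shown, 3 that hold a motif shared by most members and, for contrast, Cd3g, which lies in the same gene cluster as Cd3e and lacks it. The sequences are from RefSeq, build GRCm38.p6, a reference strain and not OF-1, and run 5′ to 3′ on the strand of the gene, from 250 bases before to 50 bases after the annotated start. Cd79a lies at chr7:24897247-24897546 on the plus strand, Ltb at chr17:35194257-35194556 on the plus strand, Cd3e at chr9:45009562-45009861 on the minus strand and Cd3g at chr9:44980382-44980681 on the minus strand. Capitals mark ACAGGAAG or its reverse complement CTTCCTGT, a motif of the ETS family of transcription factors, many of which are active in blood cells.
Cd79a: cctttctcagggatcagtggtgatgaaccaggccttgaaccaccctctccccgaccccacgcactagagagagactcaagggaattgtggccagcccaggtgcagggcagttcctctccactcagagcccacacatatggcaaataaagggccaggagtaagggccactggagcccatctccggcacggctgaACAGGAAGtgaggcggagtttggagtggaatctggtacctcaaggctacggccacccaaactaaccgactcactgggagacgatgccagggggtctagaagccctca
Ltb: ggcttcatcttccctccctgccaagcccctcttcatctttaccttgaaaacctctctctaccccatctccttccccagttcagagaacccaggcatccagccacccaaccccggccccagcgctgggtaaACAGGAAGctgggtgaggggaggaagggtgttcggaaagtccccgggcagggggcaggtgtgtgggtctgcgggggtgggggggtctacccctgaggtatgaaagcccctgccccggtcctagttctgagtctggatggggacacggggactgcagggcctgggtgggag
Cd3e: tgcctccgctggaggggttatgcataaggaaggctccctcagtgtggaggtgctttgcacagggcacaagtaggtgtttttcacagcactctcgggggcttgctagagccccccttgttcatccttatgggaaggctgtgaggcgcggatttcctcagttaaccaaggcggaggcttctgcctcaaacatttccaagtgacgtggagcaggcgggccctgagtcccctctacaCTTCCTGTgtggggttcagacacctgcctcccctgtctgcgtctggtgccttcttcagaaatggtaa
Cd3g: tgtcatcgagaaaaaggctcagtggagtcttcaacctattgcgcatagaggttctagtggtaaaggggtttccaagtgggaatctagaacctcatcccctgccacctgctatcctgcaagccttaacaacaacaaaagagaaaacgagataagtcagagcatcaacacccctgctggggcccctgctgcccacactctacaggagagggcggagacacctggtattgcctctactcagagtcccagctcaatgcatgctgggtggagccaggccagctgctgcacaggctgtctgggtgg

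The match begins at position -57 in Cd79a, -120 in Ltb and -17 in Cd3e, where it lies on the opposite strand. The Cd3g window holds none. Of 7 member genes with a listed start region, 5 held the motif on either strand in at least 1 window (Cd3e, Cd79a, Coro1a, Ltb and Lck), against 4.06% of all 27025 genes searched. The motif was chosen after the sequences had been read, so this is a description. In the reference assembly Cd3d lies between Cd3g and Cd3e as their direct neighbour among coding genes on chromosome 9, and Ltb lies beside Tnf on chromosome 17.

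The deposited signals are MAS5 values on a linear scale. The median signal of an array lay between 33 and 40, which gives a sense of the level below which a probe set is dim. Of islet endocrine markers, 13 were measured and all lay above the brightness filter, with the insulin gene Ins2 between 2680 and 4873 on the 6 arrays. Markers of acinar cells, the enzyme-making cells of the exocrine pancreas, were as bright: all 11 measured lay above the filter, with the trypsinogen gene Prss2 between 7436 and 13512. The acinar signals summed to 44360 to 85065 per array and the endocrine signals to 68478 to 88220. A probe set was tested where its mean log2(signal + 1) was at or above the 40th percentile among the non-control ones. Of the 8 members, Ptprc, Cd52, Coro1a and Cd79a passed this filter. Cd3e, Cd3g, Cd79b and Ltb did not, and their values are given without a test. In bulk islets, fewer cells of a type and less RNA per cell cannot be told apart.

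The CD3 genes were dim on every array. Cd3e, the CD3 ε chain, measured 8 and 4 on the vehicle arrays, 17 and 14 on the BPA10 arrays, and 7 and 18 on the BPA100 arrays. Cd3g, the CD3 γ chain, measured 2 and 3 in vehicle, 8 and 2 in BPA10 and 2 and 13 in BPA100 islets. Both lay below the array's median on 6 of 6 arrays, and the highest array for both was BPA100 replicate 2. The BPA10 arrays lay above the vehicle arrays for Cd3e, while every pair of groups overlapped for Cd3g.

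Cd79a, the Igα chain, measured 44 and 8 on the vehicle arrays, 33 and 38 on the BPA10 arrays, and 31 and 17 on the BPA100 arrays. The vehicle arrays held both the highest and the lowest value of this gene, and they differed 5-fold on the scale of signal + 1. Cd79b, the Igβ chain that pairs with it, measured 2 and 11 in vehicle, 53 and 12 in BPA10 and 10 and 11 in BPA100 islets. Only BPA10 replicate 1 stood above the array's median, the other 5 arrays lying between 2 and 12. The chains of this receptor thus differed in which array was highest, vehicle replicate 1 for Cd79a and BPA10 replicate 1 for Cd79b.

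**Figure D1:**
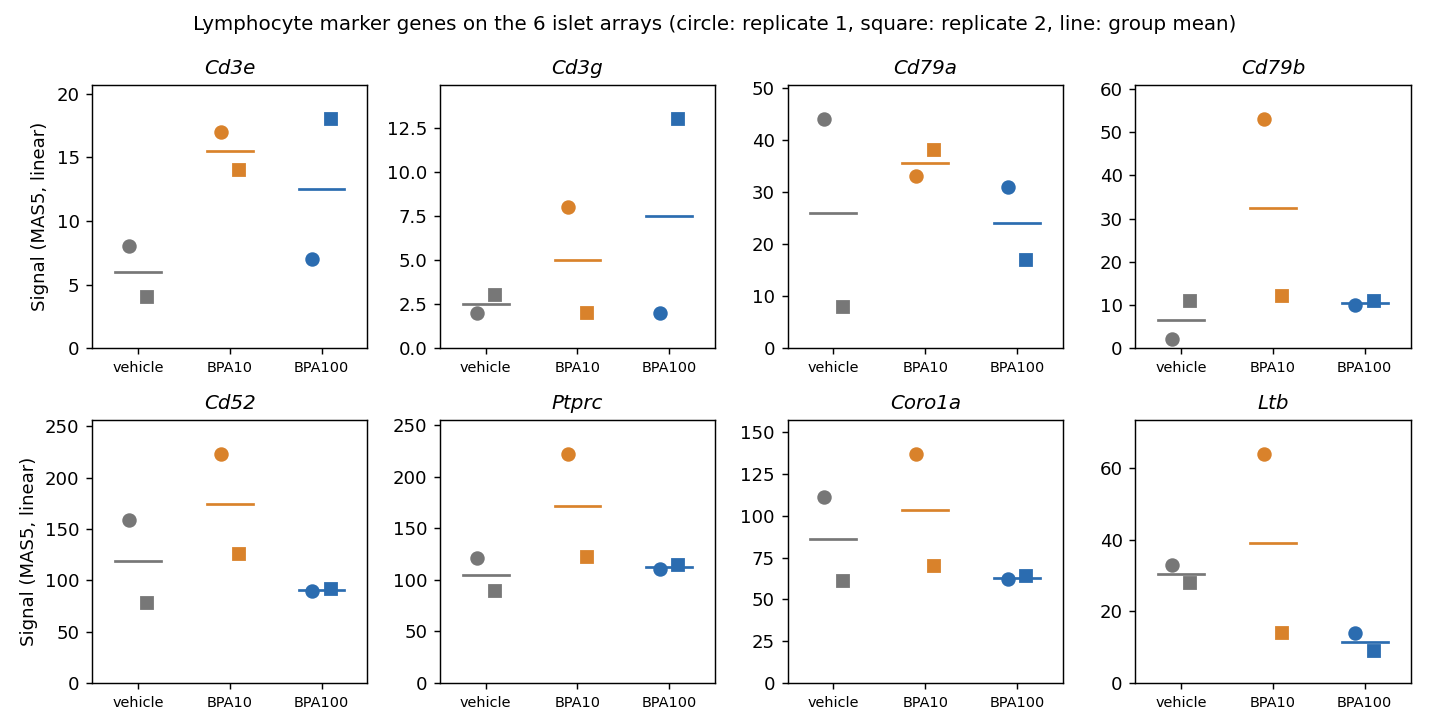
Signal (MAS5, linear scale, y axis) of the 8 measured lymphocyte marker genes in vehicle, BPA10 and BPA100 islets (x axis), with circles for replicate 1, squares for replicate 2 and lines for group means. BPA10 replicate 1 is the highest array for Cd79b, Cd52, Ptprc, Coro1a and Ltb, while the BPA100 arrays lie close together for Cd52, Ptprc and Coro1a.

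The genes shared by all leukocytes were clearly measured. Ptprc measured 121 and 89 on the vehicle arrays, 222 and 122 on the BPA10 arrays, and 110 and 114 on the BPA100 arrays. Cd52 measured 159 and 78 in vehicle, 223 and 126 in BPA10 and 90 and 91 in BPA100 islets. Coro1a measured 111 and 61 in vehicle, 137 and 70 in BPA10 and 62 and 64 in BPA100 islets. Cd52 and Coro1a ordered the arrays identically: BPA10 replicate 1 was highest, then vehicle replicate 1, BPA10 replicate 2, BPA100 replicate 2, BPA100 replicate 1 and vehicle replicate 2. Ptprc had the same order except that BPA10 replicate 2 stood just above vehicle replicate 1. The BPA100 arrays differed by 1.01-fold, 1.04-fold and 1.03-fold for Cd52, Ptprc and Coro1a, against 1.76-fold, 1.81-fold and 1.94-fold between the BPA10 arrays and 2.02-fold, 1.36-fold and 1.81-fold between the vehicle arrays.

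Ltb, the lymphotoxin gene, measured 33 and 28 in vehicle, 64 and 14 in BPA10 and 14 and 9 in BPA100 islets. Its BPA10 arrays enclosed the vehicle arrays, differing 4.33-fold, and its BPA100 arrays lay below both vehicle arrays. The second Ptprc probe set, with signals between 5 and 15, was too dim to test. Of the other Coro1a probe sets, one with signals between 25 and 54 was tested, and the other lay between 2 and 8. The tested one was highest on BPA10 replicate 1 as well (54). It did not keep the array order of the brightest one: it was lowest on BPA10 replicate 2 (25), and its BPA100 arrays differed 1.4-fold.

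Between BPA10 and vehicle islets, 7 of 8 members had the higher mean log2 value in BPA10, against 52.7% of all named genes. The median difference over the 8 members was 0.62 on the log2 scale, against 0.02 over all named genes. Cd3e, Cd79b and Ptprc, 3 of 8, did not overlap and were higher (18.2% of all named genes), and 0 of 8 did not overlap and were lower (15.2%). The separation was narrow for Ptprc, where the nearest arrays measured 122 in BPA10 and 121 in vehicle islets. It was also narrow for Cd79b, at 12 and 11, a gene that like Cd3e was too dim to test. No tested member passed: in limma 0 of the 27022 probe sets did, or 0%, at an adjusted p under 0.05, and 0 of 4 tested members had an unadjusted p under 0.05, a level reached by 1914 probe sets (7.08%). The difference was 0.66 ± 0.29 for Ptprc (SE, limma adjusted p = 0.704), 0.59 ± 0.36 for Cd52 (adjusted p = 0.795), 0.25 ± 0.37 for Coro1a (adjusted p = 0.919) and 0.86 ± 0.70 for Cd79a (adjusted p = 0.840). The other tested Coro1a probe set gave 0.04 (adjusted p = 0.989). The median was 0.20 without BPA10 replicate 1 and 0.26 without vehicle replicate 2, with 5 of 8 members higher in each case, and stood at 0.99 without vehicle replicate 1 and 1.07 without BPA10 replicate 2. Between the same groups the acinar markers had a median difference of 0.62, with 11 of 11 higher in BPA10, 10 of them without overlap, and 9 of 11 at an unadjusted p under 0.05, while 0 passed in limma. Their part in the member differences was not tested.

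Between BPA100 and vehicle islets, the members did not share a direction. In BPA100, 5 of 8 had the higher mean (50.3% of all named genes), with a median difference of 0.18 on the log2 scale against 0.00 over all named genes. None of the 8 did so without overlap (0 of 8, background 15.8%), and Ltb alone, 1 of 8, was lower without overlap (14.5%). No tested member differed at an adjusted p under 0.05 in limma (0% of all probe sets) or at an unadjusted p under 0.05 (0 of 4, where 1075 or 3.98% of probe sets reached it). The difference was -0.38 ± 0.37 for Coro1a, -0.30 ± 0.36 for Cd52, 0.11 ± 0.29 for Ptprc and 0.25 ± 0.70 for Cd79a (SE, all limma adjusted p = 1). The median was -0.46 without vehicle replicate 2, with 3 of 8 members higher, -0.01 without BPA100 replicate 1 and -0.06 without BPA100 replicate 2.

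Between BPA100 and BPA10 islets, 7 of 8 members had the lower mean in BPA100 (52% of all named genes), with a median difference of -0.62 on the log2 scale against -0.01 over all named genes. This comparison uses the same BPA10 arrays as the first. Cd79a, Cd79b, Cd52, Ptprc and Coro1a, 5 of 8, were lower without overlap (16%), and 0 of 8 were higher without overlap (13.6%). For Cd79b, which was not tested, the nearest arrays measured 11 in BPA100 and 12 in BPA10 islets. Cd52 was the only tested member with an unadjusted p under 0.05 (1 of 4, background 4.75%), at -0.88 ± 0.36 (SE, unadjusted p = 0.0404, limma adjusted p = 0.964). Coro1a differed by -0.63 ± 0.37, Ptprc by -0.55 ± 0.29 (both adjusted p = 0.964) and Cd79a by -0.60 ± 0.70 (adjusted p = 0.978). The other tested Coro1a probe set gave -0.09 with overlap (limma adjusted p = 0.996). The second Ptprc probe set, which was not tested, gave 0.23 with overlap. In limma 0% of probe sets passed. Without BPA10 replicate 1 the median was -0.23, and without BPA10 replicate 2 it was -1.04.

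**Figure D2:**
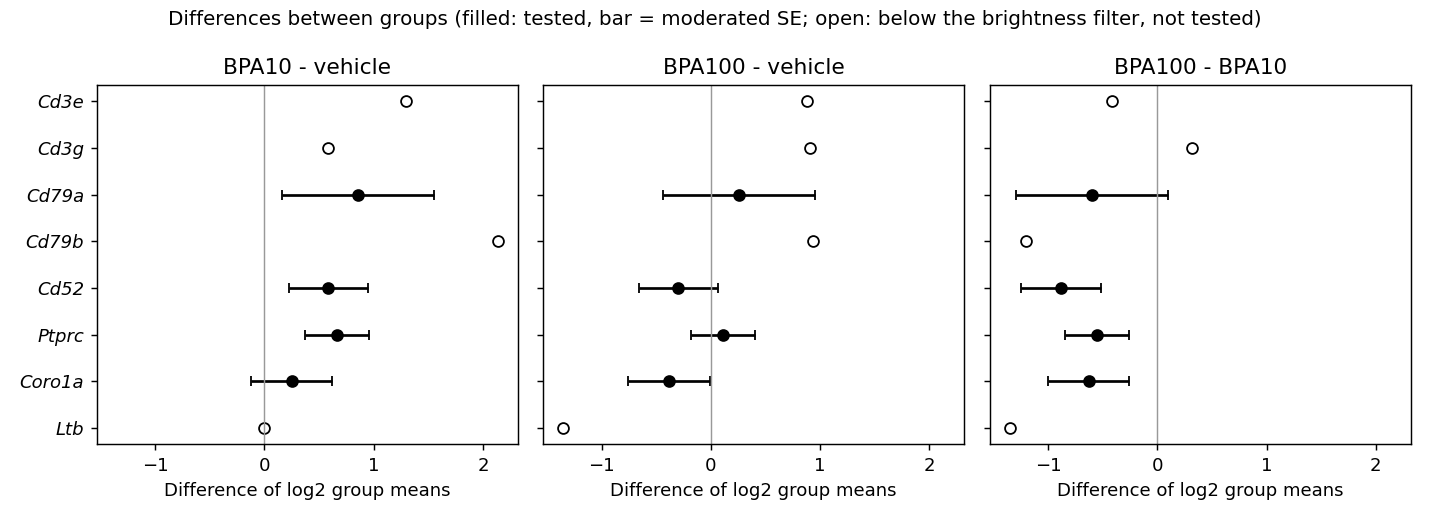
Difference of log2 group means (x axis) for the 8 lymphocyte marker genes (y axis) in BPA10 minus vehicle, BPA100 minus vehicle and BPA100 minus BPA10. Filled points with bars are tested genes with the moderated standard error, and open points are genes below the brightness filter, which have no test. Ptprc lies at 0.66 ± 0.29 in the first panel and Cd52 at -0.88 ± 0.36 in the third, and no gene passed.

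Taking both doses against vehicle, 6 of 8 members had the higher mean in bisphenol-A islets (51.6% of all named genes), with a median difference of 0.47. This median was -0.10 without vehicle replicate 2, 0.26 without BPA10 replicate 1 and 0.28 without BPA100 replicate 2. For 0 of 8 did the 4 bisphenol-A arrays all lie above the vehicle arrays (7.02% of named genes), and for 0 of 8 all below (5.83%). No tested member had an unadjusted p under 0.05 (background 5.69%) or passed in limma (0%). The moderated F test over the 3 groups gave 0 of 27022 probe sets passing (0%), with 5.23% at an unadjusted p under 0.05, and adjusted p = 0.943 for Ptprc and Cd52.

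Genes of T-cell identity and T-cell receptor signalling outside the set included dim parts of the receptor as well. Cd3d, the CD3 δ chain, measured 8 and 3 on the vehicle arrays, 20 and 10 on the BPA10 arrays and 12 and 6 on the BPA100 arrays. Cd247, the ζ chain, lay between 16 and 33, with both BPA100 arrays above the vehicle arrays. The coreceptor gene Cd4 measured 18 and 7 in vehicle, 33 and 9 in BPA10 and 12 and 9 in BPA100 islets, and Cd8a, the other coreceptor, lay between 21 and 30. Another tested Cd8a probe set measured 16 and 17 in vehicle, 53 and 17 in BPA10 and 38 and 20 in BPA100 islets. Of 30 genes listed, 26 were measured and 12 lay above the filter, and 0 passed in any comparison. Thy1, a surface protein of mouse T cells that fibroblasts also make, measured 155 and 134 in BPA10 islets, against 75 and 48 in vehicle islets (1.25 ± 0.28, SE, limma adjusted p = 0.462). Zap70, the kinase that binds phosphorylated CD3 chains, measured 293 and 214 in BPA10 islets, against 128 and 146 in vehicle islets (0.87 ± 0.24, limma adjusted p = 0.586), but its other probe sets, with signals up to 29, gave -0.16 and -0.61. Lat, the adaptor phosphorylated by ZAP-70, measured 48 and 42 in BPA10 islets, against 39 and 58 in vehicle islets.

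Several B-cell genes were high on 1 array. Ms4a1, which encodes the B-cell surface protein CD20, measured 110 on BPA10 replicate 1, against 14 to 20 on the other 5 arrays, and its second probe set measured 34, against 3 to 10. Pou2af1, Btk, Bank1, Cr2 and Pax5 were chosen after their values were seen. Pou2af1, a transcriptional coactivator of B cells, measured 52 on that array, against 5 to 14 on the others. Btk, the B-cell receptor kinase, measured 43 against 4 to 16, Bank1, a B-cell scaffold protein, 78 against 15 to 32, and Cr2, the complement receptor of B cells, 51 against 10 to 22. Of these genes, Pou2af1, Btk and Cr2 lay below the brightness filter and were not tested. All had with Cd79b in common that BPA10 replicate 1 exceeded the 5 other arrays, which was known when all but Ms4a1 were chosen. Pax5, the B-cell lineage transcription factor, did not share this, with 37 on BPA10 replicate 1 against 23 to 40. Nor did Cd72, Syk, Blk, Fcer2a or Swap70 of the same list. Ighm, the IgM heavy chain, gave no single pattern over its probe sets: the brightest measured 110 on BPA10 replicate 1 and 112 on BPA100 replicate 2, and another 132 and 100 on the same arrays, against 18 to 44 on the remaining 4.

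The count at 1.5 times below was not among the planned results, and the lists were chosen with earlier results of these data known. It is therefore a description. Of 23 B-cell genes, 8 had a signal + 1 on BPA10 replicate 1 over 1.5 times the highest of the other 5 arrays, against 3.53% of all named genes. On each of the other 5 arrays the count was 0 of 23. The same held for 3 of the 8 members (Cd79b, Ptprc and Ltb), 2 of 26 T-cell genes and 3 of 22 genes shared by leukocytes. On the same array the count was 5 of 10 for stellate and fibroblast markers, 2 of 4 for red cell, 3 of 8 for plasma-cell, 2 of 6 for duct and 3 of 13 for lymphoid stroma and homing genes. BPA10 replicate 1 was the highest array for 5 of 8 members, 16 of 23 B-cell genes, 15 of 22 leukocyte genes and 12 of 26 T-cell genes, against 25.3% of all named genes. Vehicle replicate 2 was the highest for 0 members, 0 B-cell genes and 0 leukocyte genes, against 12.8% of all named genes.

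**Figure D3:**
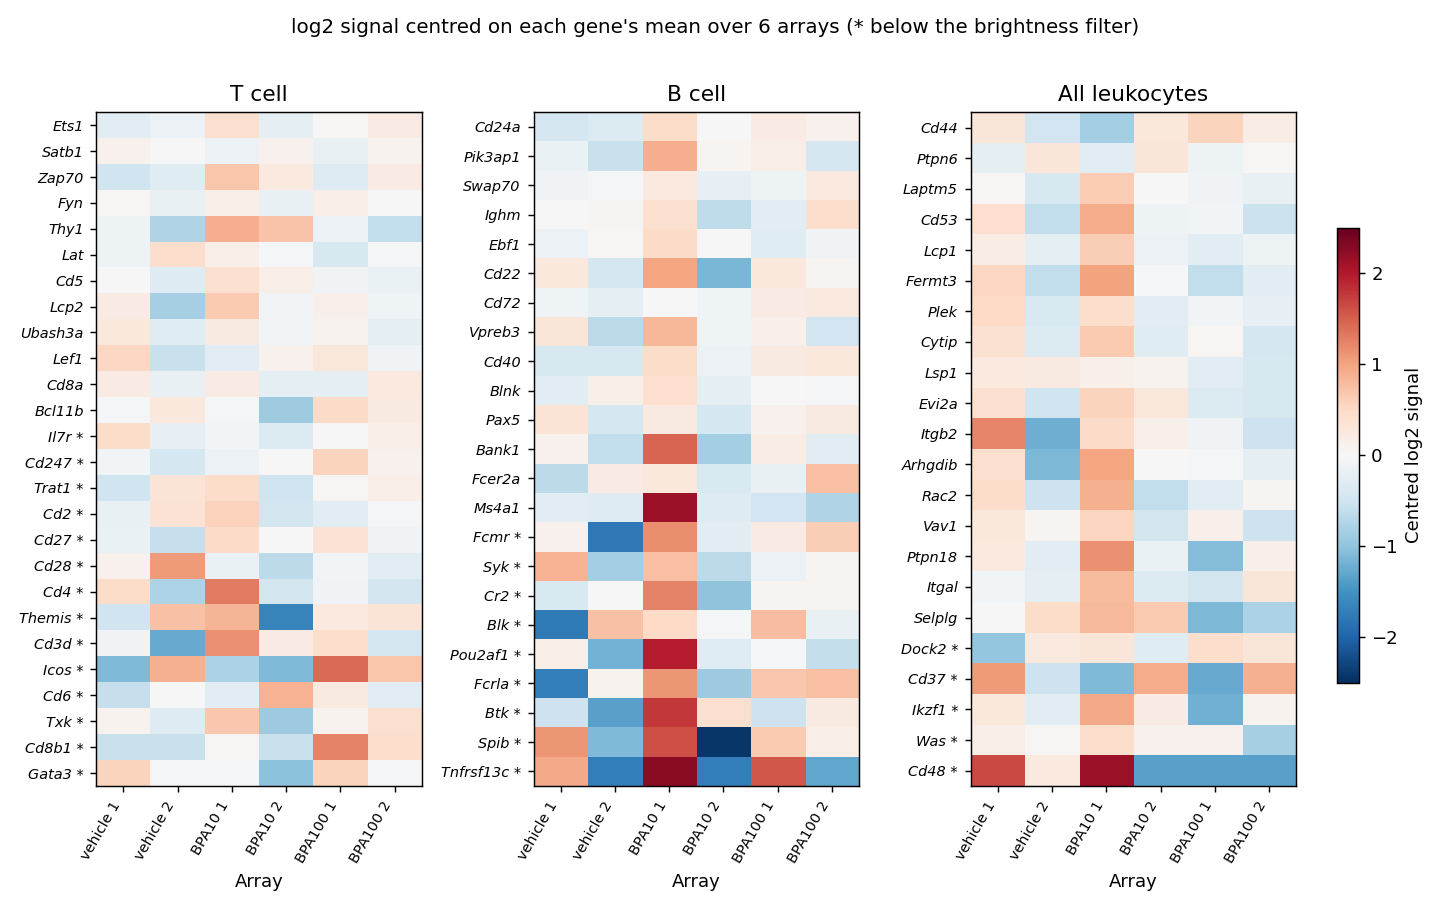
log2 signal of T-cell, B-cell and shared leukocyte genes (rows, brightest first) on the 6 arrays (columns), centred on each gene's mean, with red above and blue below that mean. The BPA10 replicate 1 column is the highest for 16 of 23 B-cell genes, 15 of 22 leukocyte genes and 12 of 26 T-cell genes.

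By group, the B-cell list had 20 of 23 genes with a higher mean in BPA10 than in vehicle islets, against 52.7% of all named genes, and a median difference of 0.55 on the log2 scale. This count was 10 of 23 without BPA10 replicate 1. In BPA100 islets 20 of 23 genes were higher than in vehicle islets, against 50.3% of all named genes, with a median of 0.25, and 13 of 23 without vehicle replicate 2. The T-cell list had 14 of 26 genes higher in BPA10 (median 0.06) and 17 of 26 higher in BPA100 (median 0.17). At an unadjusted p under 0.05 there were 2 of 14 tested B-cell genes and 2 of 12 tested T-cell genes between BPA10 and vehicle, against 7.08% of all probe sets. Between BPA100 and vehicle there were 2 of 14 B-cell genes and 0 of 12 T-cell genes, against 3.98% of all probe sets, with 0 passing in limma in each case. One of the B-cell genes was Cd24a, a surface protein also made by epithelial cells (0.61 ± 0.16 in BPA10, SE, limma adjusted p = 0.562, and 0.54 ± 0.16 in BPA100, adjusted p = 1). Its other 2 probe sets, both tested, gave 0.27 and 0.27 in BPA10, and 0.44 and 0.32 in BPA100. The others were Pik3ap1, an adaptor of PI3-kinase, in BPA10 (0.86 ± 0.32, limma adjusted p = 0.680) and Cd40, the costimulatory receptor, in BPA100 (0.66 ± 0.29, adjusted p = 1), whose other probe sets gave -0.33 and -0.58.

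Of leukocyte genes shared by lymphoid and myeloid cells, 16 of 22 were higher in BPA10 than in vehicle islets, against 52.7% of all named genes. The median difference was 0.28 on the log2 scale. In BPA100 islets 5 of 22 were higher than in vehicle islets (median -0.26), against 50.3% of all named genes. The first count lay between 11 and 18 of 22 when 1 array was left out. The second count was 14 of 22 without vehicle replicate 1, 10 of 22 without BPA100 replicate 1 and 3 of 22 without vehicle replicate 2. Laptm5, a lysosomal membrane protein of blood cells, measured 167 and 108 in BPA10 islets, against 110 and 81 in vehicle islets (0.50 ± 0.26, SE, limma adjusted p = 0.750), and its 3 other tested probe sets gave 0.21, 0.01 and 1.38. Selplg, the ligand of P-selectin on leukocytes, measured 11 and 14 in BPA100 islets, against 25 and 35 in vehicle islets (-1.19 ± 0.38, limma adjusted p = 1). Lsp1, an actin-binding protein of leukocytes, measured 50 and 46 in BPA100 islets, against 73 and 72 in vehicle islets (-0.59 ± 0.23, adjusted p = 1). Neither passed.

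Markers of some other cell types were high on BPA10 replicate 1 or vehicle replicate 1, and their part in the member values was not tested. Macrophage and myeloid markers, 19 of 20 measured and none at 0, summed to 2604 to 6053 in vehicle, 2995 to 4376 in BPA10 and 2344 to 3046 in BPA100 islets. Their mean centred log2 value was highest on vehicle replicate 1 (0.72) and next on BPA10 replicate 1 (0.50). Ptprc, Cd52 and Coro1a were highest on BPA10 replicate 1. On vehicle replicate 1 Cd52 and Coro1a came next, but Ptprc measured 121, just below 122 on BPA10 replicate 2. Lyz2, the macrophage lysozyme, measured 803 on vehicle replicate 1 and 79 to 274 on the other arrays. MHC class II genes, 7 of 8 measured and none at 0, summed to 1737 to 2017 in vehicle, 1519 to 2318 in BPA10 and 1723 to 1778 in BPA100 islets. Among them Cd74, the invariant chain, measured 170 on BPA10 replicate 1, against 83 to 114. Chosen after its values were seen, H2-Eb1, a class II β chain, measured 108 on that array, against 420 to 674.

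Red cell markers, 4 of 8 measured and none at 0, summed to 59 and 69 in vehicle, 284 and 64 in BPA10 and 84 and 53 in BPA100 islets. Slc4a1, the anion exchanger of red cells, measured 166 on BPA10 replicate 1, against 14 to 27, and was chosen after its values were seen. Of its other probe sets, neither tested, one measured 59 on that array, against 2 to 20, and another 20, against 3 to 27. Alas2, also of this list but not tested, measured 89 on BPA10 replicate 1, against 3 to 17. The haemoglobin genes of the list were not high there: Hba-a1 measured 5 on that array, against 3 to 13, and Hba-a2 measured 24, against 20 to 40. Stellate and fibroblast markers, 10 of 10 measured and none at 0, summed to 6162 to 7763 in vehicle, 6861 to 11777 in BPA10 and 4441 to 6177 in BPA100 islets. Immediate-early genes, 12 of 12 measured and none at 0, summed to 2978 to 5330 in vehicle, 1372 to 5283 in BPA10 and 1510 to 1544 in BPA100 islets. Fos, an immediate-early transcription factor, was high on the arrays where Cd52 was highest, with 2165 on BPA10 replicate 1 and 2349 on vehicle replicate 1, but also on vehicle replicate 2 (841), where Cd52 was lowest. Endothelial markers, 10 of 10 measured, varied least among the lists plotted, with mean centred log2 values between -0.08 and 0.11.

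**Figure D4:**
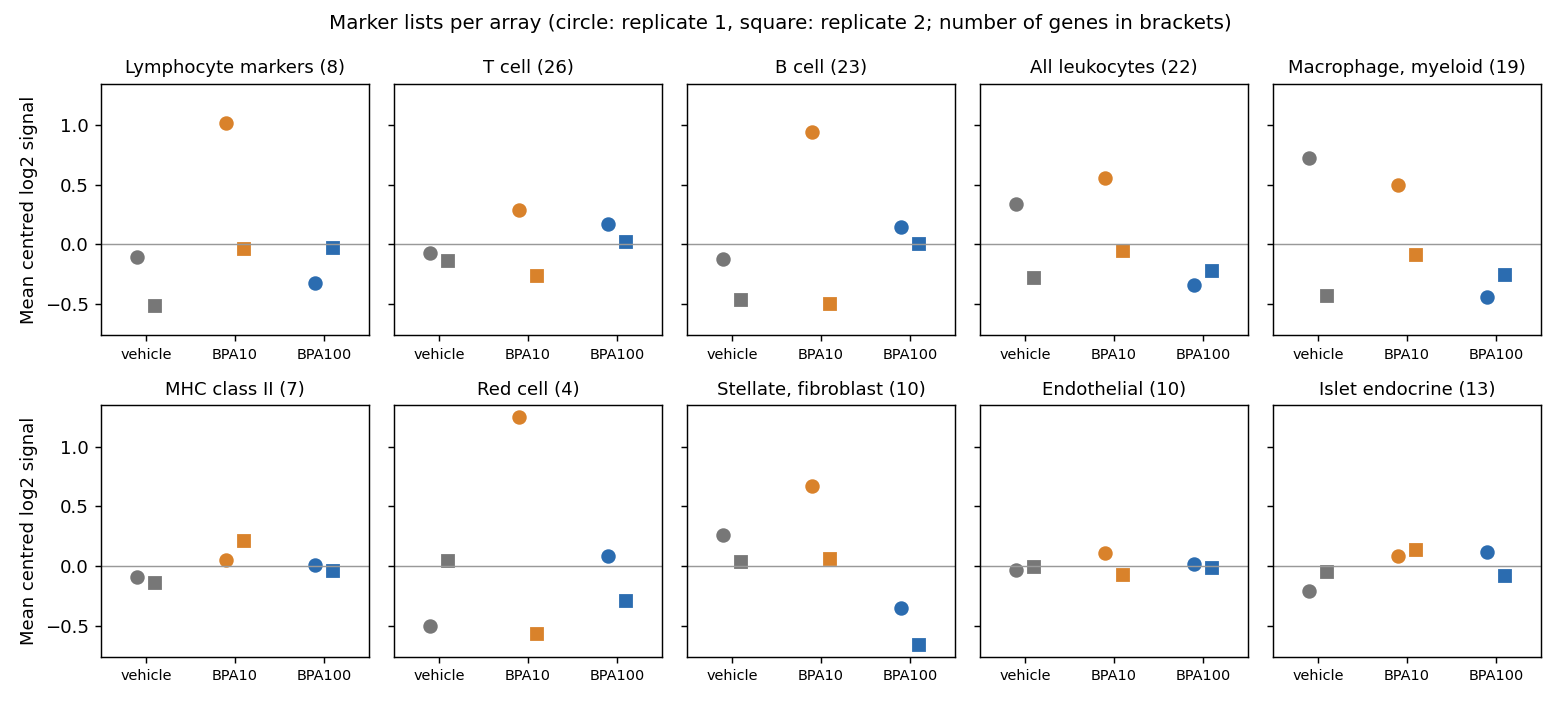
Mean over a marker list of log2 signal centred on each gene's mean over the 6 arrays (y axis), for vehicle, BPA10 and BPA100 islets (x axis), with circles for replicate 1, squares for replicate 2 and the number of genes in brackets. BPA10 replicate 1 stands at 1.02 for the lymphocyte markers and 0.94 for the B-cell list, and vehicle replicate 1 at 0.72 for the macrophage list. Over the tested lymphocyte markers alone, which are not plotted separately, BPA10 replicate 1 was at 0.723 and vehicle replicate 1 at 0.41.

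The counts for the other lists stand against 25.3% of all named genes for which BPA10 replicate 1 was the highest array. It was the highest for 3 of 11 natural killer and cytotoxic genes, 6 of 8 plasma-cell genes and 7 of 13 genes of lymphoid stroma and homing. The count was 8 of 11 for acinar, 4 of 6 for duct and 5 of 13 for endocrine genes. This array was also the highest for 8 of 10 stellate and fibroblast genes, 7 of 19 macrophage, 3 of 7 MHC class II, 2 of 10 endothelial, 2 of 4 red cell and 4 of 12 immediate-early genes. Tnf, Lta and Ltbr were chosen after their values were seen. Perforin (Prf1), the pore-forming protein of cytotoxic cells, lay between 33 and 46 on all arrays. The partners of Ltb in its gene cluster were dim, with Tnf between 6 and 21 and Lta between 2 and 3, while the receptor gene Ltbr, made by stromal cells, lay between 77 and 118.

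The genes whose pattern over the 6 arrays was most like the mean of the 8 members were Rasa3, Cd74, Lypd1, Mrc1, Usp49, Gngt2, Vcam1, Ctcflos, Gpc3 and Prr5l, with Pearson r between 0.96 and 0.98. They were taken from 2230 genes spanning at least 1 log2 unit, of which 59 had r over 0.9, and 6 arrays give such values little weight. Rasa3, at the top, measured 81 and 75 in vehicle, 151 and 92 in BPA10 and 74 and 88 in BPA100 islets. Mrc1, the mannose receptor of macrophages, measured 31 and 24 in vehicle, 68 and 35 in BPA10 and 32 and 31 in BPA100 islets. Vcam1, an adhesion molecule that leukocytes bind, measured 56 and 48 in vehicle, 119 and 63 in BPA10 and 59 and 56 in BPA100 islets. In each of these 3 genes BPA10 replicate 1 was the highest array, as in the member mean that they were chosen to resemble.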

How the data were processed

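Each array's deposited file column holds an intensity for every probe set, made by the authors with MAS5, per the submitters' processing notes. Its version and scaling target are not given in the sources used here. All deposited values are whole numbers, and the mean with the lowest and highest 2% left out was 150.0 on every array. Total RNA, purified on RNeasy columns, underwent 2 rounds of cDNA synthesis before biotin labelling, per the labels' protocols. Detection calls were not used. Having few arrays limits precision, with a median SE of 0.241 log2 units between groups of 2.

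Here log2(signal + 1) was taken without further normalization, which compresses fold changes at low signal. The 64 control probe sets were left out, and the 27022 probe sets at or above the 40th percentile of mean log2 signal were tested. limma 3.58.1 in R 4.3.3 (lmFit, eBayes with an intensity trend) was fitted to all 6 arrays with 3 group means, 2-sided, with Benjamini-Hochberg adjustment over all tested probe sets. The fit was also run on simulated data with independent noise on each array and added changes larger than the differences of the tested members. It therefore does not show how often differences of their size would be found. Names come from the platform annotation (34945 probe sets with 1 gene, 932 with several, 9160 with none). Of members, all probe sets are reported. Other lists are given as counts or sums, with a few fixed markers. For some lists, genes among the 3 smallest p per comparison with vehicle are named. Further genes were named after their values were seen. The 10 most alike genes were taken by Pearson r. Members and lists were chosen with earlier results of these data known.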

Additional observations from a re-analysis of the deposited data

How the results depend on the processing

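In none of 18 other settings did a member pass, and the smallest limma adjusted p of a member was 0.405 (Ptprc, BPA10 against vehicle, replicate block). Over all probe sets, the counts passing moved from 0. With median centring they were 6 for BPA100 against vehicle and 1 for both doses against vehicle. With only the groups compared they were 1 for BPA10 and 4 for BPA100 against vehicle. With the replicate block they were 7 for BPA100 and 1 for both doses against vehicle, and 2 for any difference among groups. The labels give no meaning to the replicate numbers, and deviations of same-numbered arrays correlated at 0.194, 0.199 and 0.0805 over tested probe sets, so the numbers were not taken as pairs. Leaving out 1 array gave 0 to 9 passing for BPA10 against vehicle, 0 to 5 for BPA100 against vehicle, 0 to 1 for BPA100 against BPA10, 0 to 7 for both doses and 0 to 6 for any difference. The highest counts came without vehicle replicate 1 except in BPA100 against BPA10, where it was without BPA10 replicate 2.

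The median member difference without 1 array lay between 0.204 and 1.07 for BPA10 against vehicle, -0.459 and 0.270 for BPA100 against vehicle, -1.04 and -0.231 for BPA100 against BPA10, and -0.100 and 0.572 for both doses. With only arrays of 1 mouse it was 1.41 for BPA10 against vehicle. That value sets 1 array against 1 array, BPA10 replicate 1 and vehicle replicate 2. These had the highest and the lowest mean centred log2 value of the members (1.02 and -0.515). Members higher numbered 5 to 8, 3 to 6, 0 to 2 and 4 to 7 in these comparisons without 1 array, and 0 in BPA100 against BPA10 with only arrays of 1 mouse. These counts were added after seeing the data.

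Signs of tested but uncalled members turned as follows, and the cause was not tested. With only arrays of 1 mouse and also without vehicle replicate 1, BPA100 against vehicle gave 0.212 for Cd52 and 0.0456 for Coro1a, and both doses gave 0.60 and 0.36 for Coro1a. Coro1a under both doses was 0.273 with the mean of its probe sets and 0.173 without BPA10 replicate 2. Without vehicle replicate 2, BPA10 against vehicle gave -0.305 for Cd79a and -0.178 for Coro1a, BPA100 against vehicle -0.907 for Cd79a and -0.111 for Ptprc, and both doses -0.606 for Cd79a and -0.365 for Cd52. Without BPA10 replicate 1, Coro1a was -0.231 in BPA10 against vehicle and Cd52 -0.06 under both doses. Cd79a was -0.161 in BPA100 against vehicle without BPA100 replicate 1. Over all 6 omissions, Cd79a reached 2.02 in BPA10 against vehicle, 1.42 in BPA100 against vehicle and 1.72 under both doses, each without vehicle replicate 1, which also gave 0.328 for Ptprc in BPA100 against vehicle and 0.653 for Cd52 under both doses. Without vehicle replicate 2, BPA100 against vehicle gave -0.806 for Cd52 and -0.808 for Coro1a, and both doses -0.493 for Coro1a. Coro1a was 0.728 in BPA10 against vehicle without BPA10 replicate 2. Untested members turned too. Cd3g was -0.208 in BPA10 against vehicle without BPA10 replicate 1 and -0.208 in BPA100 against vehicle without BPA100 replicate 2. In BPA100 against BPA10 it was -0.474 with only arrays of 1 mouse and without BPA10 replicate 2, and -0.792 without BPA100 replicate 2. Cd79b was -0.0628 in BPA100 against vehicle without vehicle replicate 1, and the same when pooled arrays were left out, and Cd3e was 0.21 in BPA100 against BPA10 without BPA100 replicate 1. Ltb lay at -0.01 in BPA10 against vehicle, between -1.07 and 1.05 without 1 array. The signals of Cd3e, Cd3g, Cd79b and Ltb limit what can be read from them, since a change of a few units is a large fold.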
